A study of Mus musculus with 2 samples.

Results

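Collagens are the main structural proteins of the extracellular matrix. They were followed here together with the enzymes and helper proteins that modify, fold, trim and crosslink them. The genes were picked by matching names, and the list of names was set with earlier results of these data known. It covered the numbered collagen chains, the prolyl and lysyl hydroxylases with their partner Crtap, and the collagen galactosyltransferases. The chaperone Serpinh1, the C-propeptidases with their enhancers and the lysyl oxidases were also on it. This gave 68 of the 34295 genes of the table, 44 collagen chains and 24 collagen-processing genes. Each of the 68 stood on 1 row.

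A collagen molecule is a triple helix of chains in which glycine recurs at every turn of the repeat Gly-X-Y. Inside the endoplasmic reticulum, prolines are hydroxylated by prolyl 4-hydroxylases, which makes the helix stable at body temperature. Some lysines are hydroxylated and then glycosylated, and the chaperone HSP47 binds the folded helix. Fibril-forming collagens are secreted as procollagens, trimmed at both ends outside the cell, assembled into fibrils and crosslinked by lysyl oxidases. Fibroblasts are the standard producers of this matrix, whereas macrophages are better known for taking up and degrading it.

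The series compared 2 kinds of primary mouse cells of strain C57BL/6J, each with 1 poly(A) RNA library. Wild-type embryonic fibroblasts (MEF) were grown from E13.5-E14.4 embryos without head and red tissue, cleared by sorting of cells positive for CD45, CD11b or F4/80, kept in DMEM with 10% serum, used at passage 4 to 7, and lysed at 100000 cells. Wild-type bone marrow derived macrophages (BMDM) were differentiated for 6 days in RPMI with 10% serum and 30% L929-conditioned medium, and 750000 cells were plated for lysis. The labels give the study's purpose as a survey of growth factors and their receptors, and the collagens are a further reading of the same table. Cell type, medium, cell number and preparation cannot be told apart.

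Values are TPM, the share of a library's transcripts that a gene takes, corrected for transcript length and scaled to a fixed total, so that levels of different genes can be set side by side. The columns summed to 999545 TPM in MEF and 999609 TPM in BMDM. Read depth is unknown, and with 1 library per cell type there is no replicate check, no error and no test. The call rule was as follows: higher means that log2 of (MEF TPM + 1) / (BMDM TPM + 1), the log2 ratio, is at least 2 in size, which is 4-fold, and that the higher value is at least 5 TPM. A value of 0 means only that the gene is listed at 0, and no fold is given against it. Markers of the labelled cell types mostly went with the labels: 18 of 18 macrophage markers were higher in BMDM and 15 of 18 fibroblast markers in MEF. The other 3, Vim, S100a4 and Tcf21, were higher in neither. From lists of neural and glial, epithelial and muscle markers, Stmn2, Tubb3, Krt19 and Des were also called higher in MEF. They stood at 39.7, 20.8, 23.2 and 6.11 TPM against 0, 0.163, 0 and 0, and the rest of these lists was not called.

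Collagen transcripts were abundant in fibroblasts and close to absent in macrophages, while 8 of the 13 enzymes and partners that modify collagen inside the cell reached 5 TPM in both. The 44 chains summed to 9789.9 TPM in MEF, 0.979% of the library, and to 32.8 TPM in BMDM, a 298-fold difference. In bulk RNA, fewer cells of a type and less RNA per cell cannot be told apart. The 13 intracellular modifying enzymes and partners summed to 1591 TPM in MEF and 733 TPM in BMDM, a 2.17-fold difference. The chaperone Serpinh1 also acts inside the cell but is not among the 13. It stood at 1877 TPM in MEF and 3.91 TPM in BMDM. The 10 genes that act on collagen outside the cell summed to 3354 TPM in MEF and 8.35 TPM in BMDM, a 402-fold difference. Of the 44 chains, 22 were called higher in MEF, none in BMDM and 22 in neither. Over all genes of the table, 4.67% were called higher in MEF and 2.86% in BMDM. Of the 24 processing genes, 15 were higher in MEF, none in BMDM and 9 in neither. The median log2 ratio was 2.13 over the 44 chains and 3.73 over the 24 processing genes, against 0.00 over all 34295 genes.

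**Figure D1:**
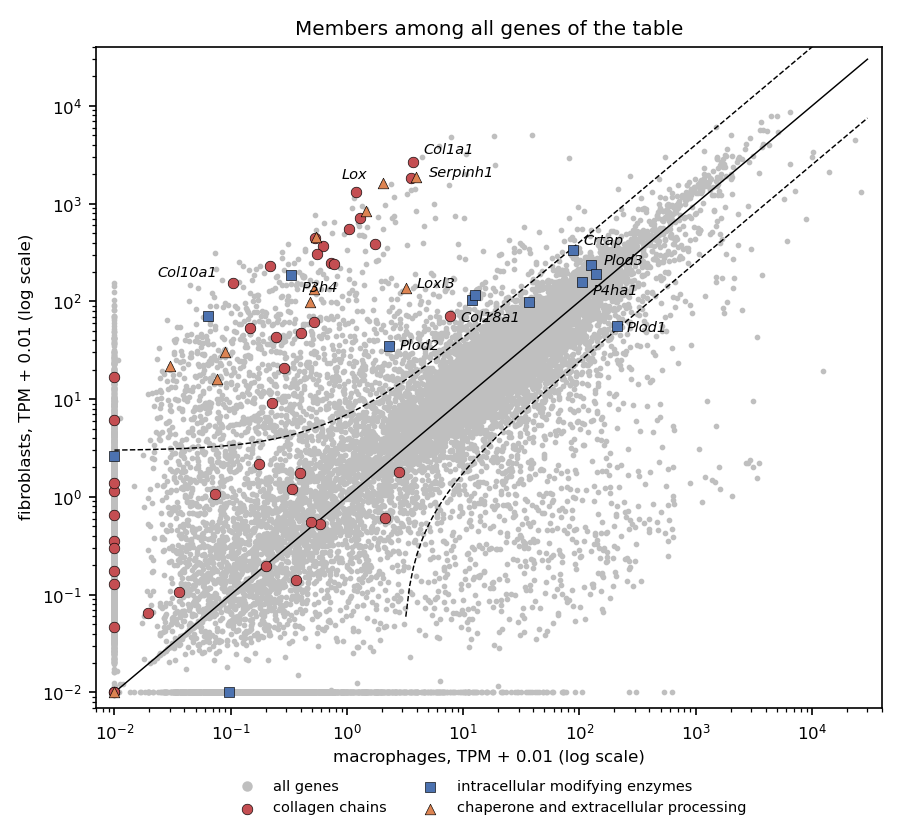
TPM + 0.01 of each gene in the macrophage library (x axis) and the fibroblast library (y axis), both on log scales, with all genes in grey and the members coloured by role. The solid line marks equal values and the dashed lines the 4-fold rule; the 22 called chains and the called extracellular genes lie above the upper dashed line, whereas P4ha1, Plod3, Colgalt1 and Crtap lie between the dashed lines and Plod1 just inside the lower one.

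A level of 5 TPM in BMDM parted the chains and the extracellular genes from most of the intracellular enzymes. The chaperone Serpinh1 acts inside the cell but is counted here with the extracellular genes. Among the 10189 genes at 5 TPM or more in MEF, 82.1% also reached 5 TPM in BMDM. Of the 22 chains at 5 TPM or more in MEF, 1 did so, Col18a1. Of the 11 genes formed by the extracellular group and the chaperone, 10 reached 5 TPM in MEF and none in BMDM. Of the 13 intracellular enzymes and partners, 11 reached 5 TPM in MEF and 8 of them also in BMDM, a share below that of all genes. P4ha3, P3h4 and Plod2 did not reach it in BMDM. All 43 members that reached 5 TPM in either library did so in MEF. For this reason the median log2 ratio of 7.15 over the 22 chains of that level, against 0.26 over all 11191 such genes, follows in part from the filter. Among those 11191 genes, 14.3% were higher in MEF and 8.77% in BMDM.

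Upstream sequences are shown for members from each side of this split, so that the promoters of genes called higher in MEF can be read beside those of enzymes expressed in both libraries. Promoter windows of 300 bases, 250 before to 50 after the gene start, were taken from RefSeq (GRCm38.p6), which held 50 of the 68 members in 55 windows. The stretches below are the 120 bases before the start, 5′ to 3′ on the gene's strand, with motif matches in capitals. The motifs searched, on both strands, were the TATA box letters TATAAA, the CCAAT box and, as the core of the GC box, GGGCGG. The first 4 belong to genes higher in MEF and the last 2 to genes expressed in both libraries.
Col3a1 (chr1:45311418-45311537, plus strand): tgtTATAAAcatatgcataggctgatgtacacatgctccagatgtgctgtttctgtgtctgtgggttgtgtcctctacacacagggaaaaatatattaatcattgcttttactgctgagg
Col10a1 (chr10:34389861-34389980, plus strand): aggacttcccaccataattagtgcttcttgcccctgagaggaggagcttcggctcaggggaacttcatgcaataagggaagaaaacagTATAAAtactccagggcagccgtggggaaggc
Col8a1 (chr16:57754738-57754857, minus strand): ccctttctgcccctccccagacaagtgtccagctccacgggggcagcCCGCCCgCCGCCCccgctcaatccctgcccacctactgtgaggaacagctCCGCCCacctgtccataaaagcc
Serpinh1 (chr7:99353240-99353359, minus strand): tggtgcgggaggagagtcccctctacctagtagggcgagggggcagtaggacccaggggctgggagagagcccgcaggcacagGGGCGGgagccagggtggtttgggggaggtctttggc
Plod1 (chr4:147936777-147936896, minus strand): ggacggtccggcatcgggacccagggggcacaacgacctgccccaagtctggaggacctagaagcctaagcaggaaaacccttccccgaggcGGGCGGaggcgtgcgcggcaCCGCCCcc
P4ha1 (chr10:59323176-59323295, plus strand): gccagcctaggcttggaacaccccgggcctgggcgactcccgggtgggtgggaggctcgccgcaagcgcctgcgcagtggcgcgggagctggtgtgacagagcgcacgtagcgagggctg

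In these stretches the Col3a1 sequence had 40.0% G and C and no CG dinucleotide, and that of Col10a1 51.7% and 2. Those of Plod1 and P4ha1 had 70.8% and 73.3%, with 11 and 12 CG dinucleotides. Serpinh1 and Col8a1, at 69.2% and 67.5% with 4 and 6, are GC-rich as well. Among stretches taken but not shown, those of genes higher in MEF ran from 41.7% (Tll1) to 72.5% (Col5a1). Those of Plod3 and Colgalt1, expressed in both libraries, had 55.0% and, in separate windows of Colgalt1, 55.8% and 65.8%. The sides thus overlap. In Col10a1 the TATAAA match begins 32 bases before the start, and in Col3a1 117 bases before it. Over whole windows, the median number of CG dinucleotides was 13 in the 29 windows of members higher in MEF, 25 in the 7 windows of members at 5 TPM or more in both and not called, and 7 in all 32851 windows of the table. GGGCGG stood in 75.9% of the 29 windows and 6 of the 7, against 35.7% of all windows. The CCAAT box stood in 41.4% of the 29 and 1 of the 7, against 37.4% of all. The letters TATAAA stood in 6.90% of the 29 and 3 of the 7, against 13.6% of all. Among the genes higher in MEF, only Col3a1 and Col10a1 had them, and both are shown above. The 3 windows are those of Crtap, P4ha1 and Plod1. For P4ha1 and Plod1 these letters lie outside the stretch shown, as does GGGCGG for P4ha1. The stretches shown therefore do not stand for the counts over whole windows. No motif is contained in another, some windows belong to the same gene, and a match is not a binding site.

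The fibrillar chains carried most of the collagen signal in MEF. The 11 genes of this class made up 73.3% of the summed collagen TPM there, and 9 were called higher in MEF. Col1a1 and Col1a2 encode the chains of type I collagen, the main collagen of skin, tendon and bone. Col1a1 stood at 2634 TPM in MEF, rank 44 of all genes, and 3.66 TPM in BMDM. Col1a2 stood at 1833 TPM and 3.53 TPM. Col3a1, the single chain gene of type III collagen, stood at 1318 TPM and 1.18 TPM and had the largest log2 ratio of any member, 9.24. These 3 genes held 59.1% of the collagen TPM in MEF. Type I collagen is usually built of a pair of alpha 1 chains and 1 alpha 2 chain. The ratio of Col1a1 to Col1a2 TPM was 1.44 in MEF, and 1.04 at the low levels in BMDM.

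The type V and XI chains, which start fibrils and limit their width, differed widely in MEF, Col5a2 being 16.7-fold the level of Col5a3. Col5a2 stood at 718 TPM and Col5a1 at 554 TPM, a ratio of Col5a1 to Col5a2 of 0.772, while Col5a3 stood at 42.9 TPM. In BMDM these were 1.30, 1.03 and 0.236 TPM. Col11a1 stood at 53.5 TPM against 0.137, whereas Col11a2, its partner in cartilage, was low in both, at 0.524 and 0.572 TPM. Col27a1 and Col2a1, the chain of cartilage type II collagen, were called higher in MEF from low levels, at 9.07 TPM against 0.215 and 6.11 TPM against 0. Both calls are lost with a minimum of 10 TPM or a pseudocount of 5.

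**Figure D2:**
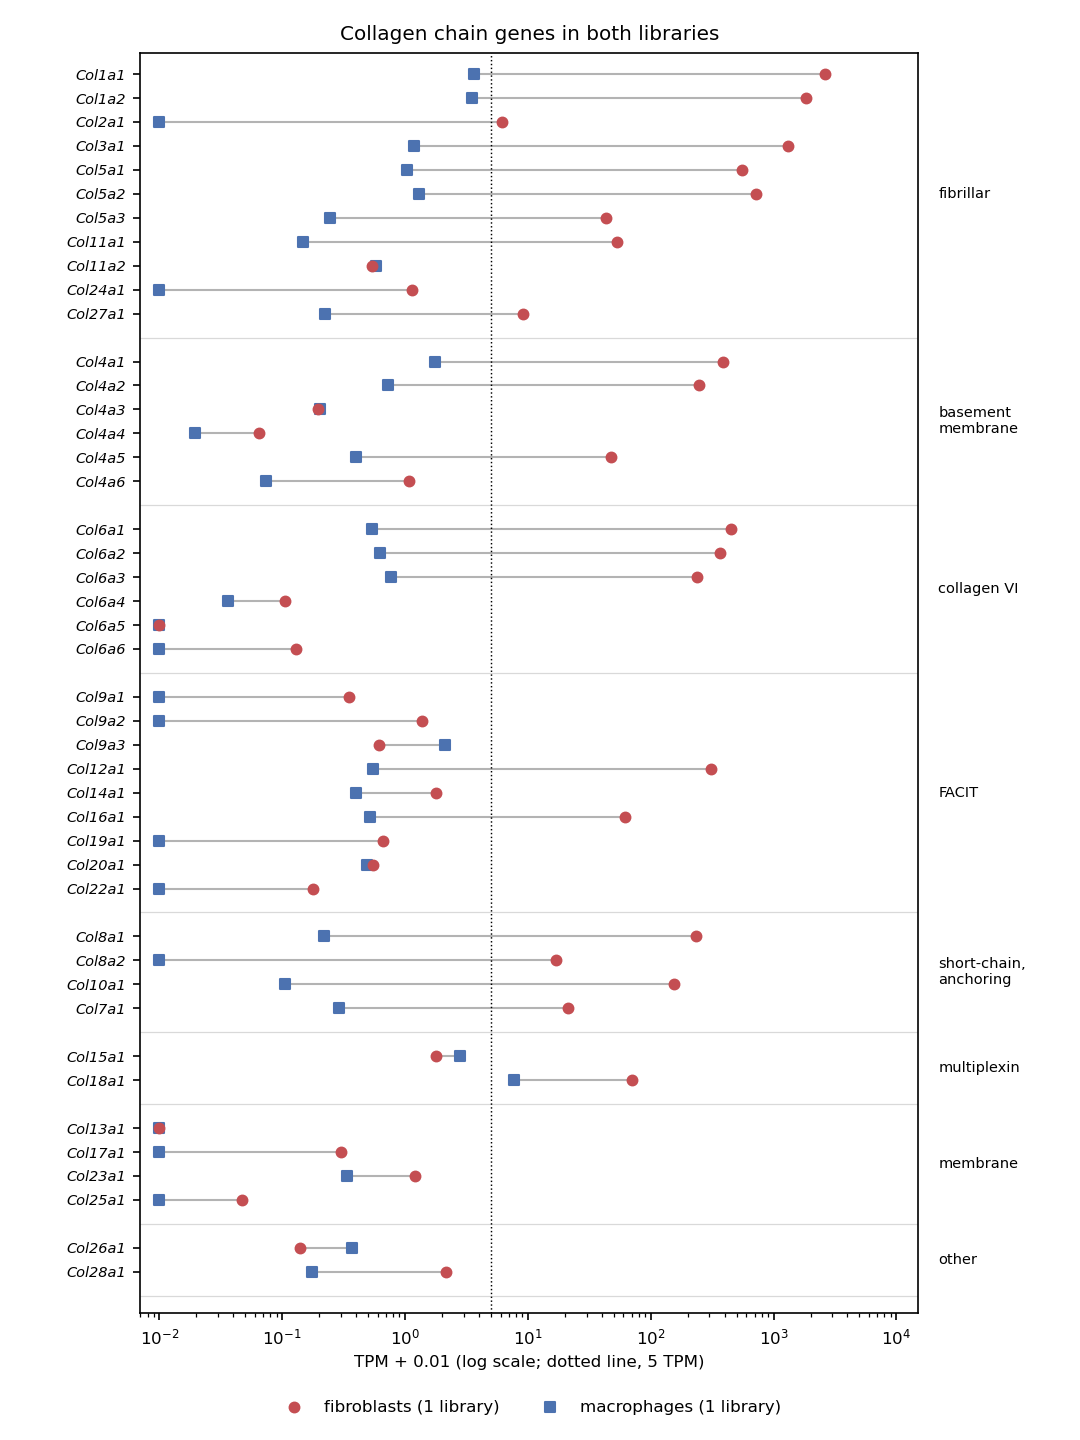
TPM + 0.01 (log scale) of the 44 collagen chain genes, 1 row per gene grouped by class, with circles for the fibroblast and squares for the macrophage library and a dotted line at 5 TPM. Col18a1, at 7.67 TPM, is the 1 macrophage value right of the line, against 22 fibroblast values.

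Basement membrane collagen was represented by the widespread chains. Col4a1 stood at 390.1 TPM in MEF and 1.74 in BMDM and Col4a2 at 248 and 0.722, both called higher in MEF. Their products assemble in the proportion of a pair of alpha 1 to 1 alpha 2 chain, and the ratio of Col4a1 to Col4a2 TPM was 1.57 in MEF. Col4a5 also was higher in MEF, at 47.5 TPM against 0.391, while Col4a6 stood at 1.06 against 0.0638. Col4a3 and Col4a4, whose products form the network of kidney and lung with alpha 5, stood at 0.193 TPM or less in both libraries. The type IV genes lie head to head in pairs (GENCODE M21, GRCm38). Col4a1 (minus strand of chromosome 8, 11198423 to 11312826) and Col4a2 (plus strand, 11312805 to 11449287) overlap by 22 bases at their starts. In this pair both members were high in MEF. In the pair of Col4a6 (minus strand of chromosome X, 141165403 to 141474076) and Col4a5 (plus strand, 141475385 to 141689234), 1308 bases apart, Col4a5 was high and Col4a6 was not. Endothelial cells also make type IV collagen. Of 8 endothelial markers 1 was higher in MEF, Erg at 7.35 TPM against 0.0682. Pecam1 stood at 1.97 TPM in MEF against 1.33 and Tek at 1.32 against 0, both without a call. Esam, Emcn, Tie1, Cdh5 and Cldn5 stood at 0.253, 0.224, 0.134, 0.0236 and 0 TPM in MEF. The list summed to 11.3 TPM in MEF and 2.67 TPM in BMDM, and its part in the type IV values was not tested.

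Type VI collagen forms beaded filaments around cells from 3 different chains. Its standard chains Col6a1, Col6a2 and Col6a3 stood at 449, 369 and 239 TPM in MEF and at 0.523, 0.615 and 0.760 TPM in BMDM. All 3 were higher in MEF and lay within 1.88-fold of each other there. The alternative chains Col6a4, Col6a5 and Col6a6 stood at 0.119 TPM or less in both libraries. Col6a2 and Col6a1 are neighbours on chromosome 10, both on the minus strand, at 76595762 to 76623630 and 76708792 to 76726168, while the 3 alternative chains lie together on chromosome 9. Col3a1 and Col5a2 are likewise neighbours, on chromosome 1 at 45311538 to 45349706 and 45374321 to 45503282, tail to tail.

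Among the remaining classes a few members were high in MEF. Of 9 FACIT collagens, which sit on fibril surfaces, Col12a1 at 307 TPM against 0.540 and Col16a1 at 62.2 against 0.511 were called, and the other 7 stood at 2.12 TPM or less in both libraries. All 4 short-chain and anchoring collagens were higher in MEF. Col8a1, a network-forming chain of vessel and eye, stood at 232 TPM against 0.208, and its partner Col8a2 at 16.8 against 0. Col7a1, which forms the anchoring fibrils beneath epithelia, stood at 21.0 TPM against 0.280. Col10a1, known as the collagen of hypertrophic cartilage, stood at 154 TPM against 0.0945. The 4 membrane-spanning chains stood at 1.19 TPM or less in both libraries and Col26a1 at 0.130 and 0.358, while Col28a1 stood at 2.16 TPM in MEF.

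The other cartilage genes listed here stood at lower levels than Col10a1 in MEF, and some of them were called. Col11a1 and Comp, a cartilage matrix gene, were higher in MEF, at 53.5 and 30.1 TPM. Col2a1 stood at 6.11 TPM in MEF, 25.2-fold below Col10a1, and Col9a1, Col9a2 and Col9a3 at 0.343, 1.37 and 0.599 TPM. Of 7 chondrocyte markers in the table, Sox9 alone was called, at 5.03 TPM against 0. In MEF, Matn3 stood at 1.61 TPM, Acan at 0.370, Hapln1 at 0.240, and Matn1, Cnmd and Ucma at 0. The Sox9 call is lost with median-of-ratios scaling, a pseudocount of 5 or a minimum of 10 TPM. The markers summed to 7.25 TPM in MEF and 0.101 TPM in BMDM, and the source of the Col10a1 value was not tested. Of 8 osteoblast markers none was called, and Runx2 stood at 13.1 TPM in MEF and 3.50 in BMDM, with Bglap at 0 in both. Exons of Col10a1 share 18 bases with Nt5dc1 on the opposite strand, which stood at 6.97 TPM in MEF and 13.3 in BMDM.

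Macrophages held few collagen transcripts, and the listed shares differed from those of fibroblasts. Of the 44 chains, 9 reached 1 TPM in BMDM and 1 reached 5 TPM. The BMDM shares thus rest on low values of 1 library of unknown depth. Col18a1, whose product is a basement membrane proteoglycan and the source of endostatin, was the chain with the highest BMDM value, at 7.67 TPM, and was 9.22-fold higher in MEF at 70.7 TPM. It held 23.4% of the 32.8 collagen TPM in BMDM and 0.722% of the collagen TPM in MEF. The related Col15a1 stood at 2.79 TPM in BMDM and 1.78 in MEF, and Col9a3 at 2.12 and 0.599, both without a call. Exons of Col9a3 share 234 bases with Tcfl5 on the other strand, at 0.0920 TPM in BMDM. Both multiplexins together, Col15a1 and Col18a1, made up 31.8% of the collagen TPM in BMDM and 0.740% in MEF. Col1a1 and Col1a2 held a further 11.1% and 10.7% in BMDM.

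**Figure D3:**
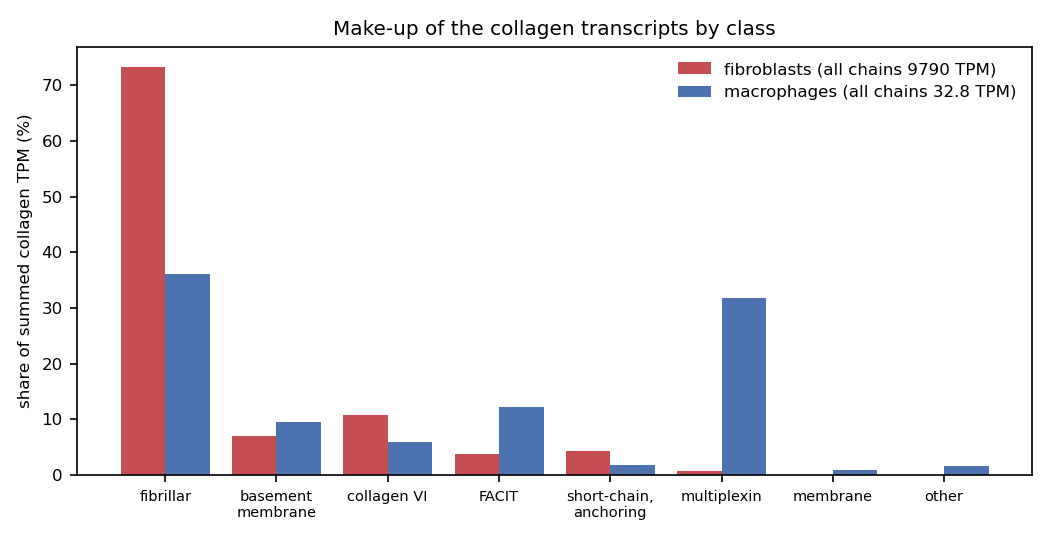
Share of the summed collagen TPM (y axis, %) taken by each class of collagen chains (x axis) in the fibroblast and the macrophage library, 1 library each. Fibrillar chains take 73.3% in fibroblasts and 36.1% in macrophages, and multiplexins 0.740% and 31.8%; the total is 298-fold smaller in macrophages.

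The low collagen values in BMDM were set beside genes that mark the opposite cell type. For the 13 chains at 100 TPM or more in MEF, the BMDM value was between 0.0614% (Col10a1) and 0.446% (Col4a1) of the MEF value, with a median of 0.176%. Of the 18 fibroblast markers 11 reached 100 TPM in MEF, and without Vim and S100a4, left out after their values were seen, the other 9 stood at 0.0738% to 0.523% in BMDM, median 0.167%. With both the median over 11 was 0.268%. In the reverse direction, 16 macrophage markers at 100 TPM or more in BMDM stood in MEF at 0.0384% to 5.47% of that value, median 0.153%. Over all genes at 100 TPM or more in the own library, the median was 70.7% for the 1650 genes of MEF and 89.3% for the 1519 of BMDM. The markers were listed for being high in 1 cell type and every gene entered by its level in that library, so nothing is read from how near the medians of the lists lie to each other. Col18a1, at 10.8%, lay above these ranges, but at 70.7 TPM in MEF it is under the 100 TPM they require. Col15a1, Col9a3, Col26a1, Col11a2 and Col4a3 had BMDM values above the MEF values. All of these stood at 2.79 TPM or less in both libraries, too low to be set against the ranges. Whether the low values are transcripts of the cells themselves was not tested.

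**Figure D4:**
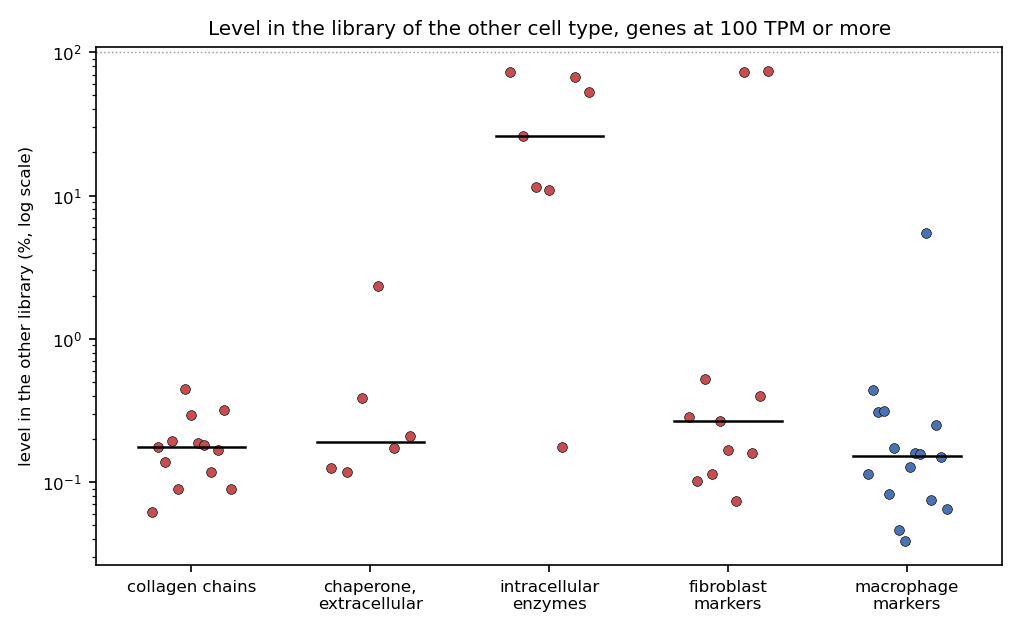
Level in the library of the other cell type as a percentage of the level in the own library (y axis, log scale) for genes at 100 TPM or more in the own library, which is fibroblast for the red and macrophage for the blue points; bars are medians over genes, for fibroblast markers over all 11. Chains (median 0.176%), extracellular genes with the chaperone (0.190%) and macrophage markers (0.153%) lie mostly under 1%, and intracellular enzymes (26.2%) lie higher, except P3h4 at 0.175%.

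Among the 13 intracellular modifying enzymes and partners, 5 were higher in MEF, none in BMDM and 8 in neither. Of these 8, 6 reached 5 TPM, while P3h2 and Colgalt2 were under it in both libraries. Over all genes of the table, 4.67% were higher in MEF and 2.86% in BMDM. Among genes at 5 TPM or more in either library, the shares were 14.3% and 8.77%. Prolyl 4-hydroxylase is a tetramer whose catalytic alpha subunit comes from 1 of 3 genes. P4ha1 stood at 157 TPM in MEF and 105 TPM in BMDM, and P4ha2 at 99.1 and 37.0, neither called. P4ha3 stood at 70.4 TPM in MEF and 0.0540 in BMDM. All 3 subunits were thus expressed in MEF within 2.23-fold of each other, and 2 of them in BMDM. The partner subunit gene P4hb, which also serves as protein disulfide isomerase, stood at 922 and 573 TPM.

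Prolyl 3-hydroxylation is a rare modification carried out by a complex of P3h1 (the enzyme), Crtap (its partner) and cyclophilin B (encoded by Ppib). P3h1 stood at 104 TPM in MEF and 11.9 in BMDM and was called, while Crtap, at 338 and 88.6 TPM, had a log2 ratio of 1.92, just short of the rule. Ppib stood at 826 and 678 TPM. P3h3 was higher in MEF, at 116 TPM against 12.7. P3h4, a family member without enzyme activity that supports lysyl hydroxylation in the reticulum, had the widest gap of the class, 185 TPM against 0.323. P3h2 stood at 2.62 TPM in MEF and was listed at 0 in BMDM.

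The lysyl hydroxylases stood in a different order in each library. Plod1, which acts on lysines of the helix, stood at 56.2 TPM in MEF and 208 TPM in BMDM, a 3.71-fold difference. It was the 1 member at 5 TPM or more with the higher value in macrophages. Its log2 ratio of -1.87 lies just inside the rule, and it is called at -2.05 with median-of-ratios scaling and -2.01 after rescaling to the totals left by taking out mitochondrial and top genes. With a 2-fold rule Plod1 is called too, as are 15.2% of the 11191 genes at 5 TPM or more toward BMDM and 23.6% of them toward MEF. Plod2, which modifies the ends of the chains and so shapes crosslinks, went the other way, at 34.7 TPM in MEF and 2.28 in BMDM, and was called. Plod3, which also carries glycosyltransferase activity, stood at 237 and 126 TPM without a call. The order in MEF was Plod3, Plod1, Plod2, and in BMDM Plod1, Plod3, Plod2. The ratio of Plod1 to Plod2 TPM was 1.62 in MEF and 91.5 in BMDM. Colgalt1, which adds galactose to hydroxylysine, stood at 191 TPM and 139.7 TPM, the closest pair of values among the expressed members, and Colgalt2 at 0 and 0.0875 TPM. The 5 genes of the class summed to 519 TPM in MEF and 477 TPM in BMDM. Exons of Plod3 share 529 bases with Znhit1 on the opposite strand, at 74.0 TPM in MEF and 105 in BMDM, and those of Colgalt1 495 bases with Unc13a, at 0.993 and 4.91 TPM. Whether strand was used in counting is not given in the sources used here, so reads of such partners cannot be told apart.

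**Figure D5:**
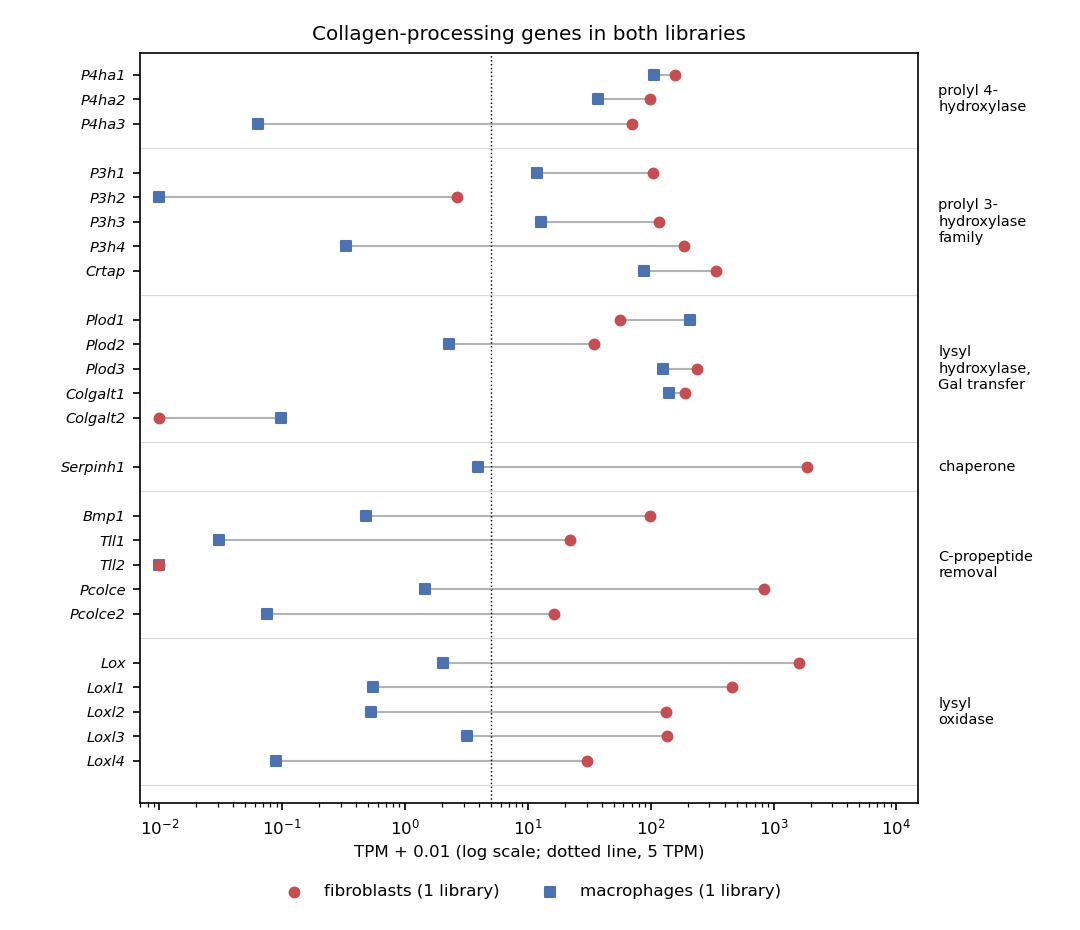
TPM + 0.01 (log scale) of the 24 collagen-processing genes, 1 row per gene grouped by role, with circles for the fibroblast and squares for the macrophage library and a dotted line at 5 TPM. The macrophage values right of the line are all intracellular enzymes or partners, 8 genes from P3h1 at 11.9 TPM to Plod1 at 208 TPM, and Plod1 is the 1 of these with its macrophage value above its fibroblast value.

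The collagen-specific chaperone was high in MEF and low in BMDM, as the abundant chains were. Serpinh1, which encodes HSP47, stood at 1877 TPM in MEF, rank 66 of all genes and above each chain except Col1a1, and at 3.91 TPM in BMDM. The BMDM value was 0.208% of the MEF value, within the range of the chains given above. The gene is on the minus strand of chromosome 7, and its upstream stretch shown above holds 1 GGGCGG.

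Of the 5 genes for removing the C-propeptide, 4 reached 5 TPM in MEF and none did in BMDM. Bmp1, the main C-propeptidase, stood at 99.4 TPM against 0.469, and the related protease gene Tll1 at 21.9 against 0.0204, while Tll2 was listed at 0 in both. The enhancer gene Pcolce, whose product speeds C-propeptide removal without being a protease, stood at 835 TPM against 1.44, which is 8.41-fold the level of Bmp1 in MEF. Pcolce2 stood at 16.2 TPM against 0.0657. All 4 expressed genes were called higher in MEF. Of the 3 N-propeptidase genes, which remove the other end, Adamts2 was called, at 16.8 TPM against 0.159, while Adamts14 stood at 4.47 against 0.188 and Adamts3 at 1.69 against 0.

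All 5 lysyl oxidase genes were higher in MEF. Lox stood at 1625 TPM, rank 87 of all genes, and at 2.02 TPM in BMDM. Loxl1, whose product also crosslinks elastin, stood at 458 TPM against 0.537, and Loxl3, Loxl2 and Loxl4 at 136, 132 and 30.5 TPM against 3.20, 0.514 and 0.0785. Lox alone was 3.55-fold the level of Loxl1 in MEF. The BMDM value of Loxl3 was 2.35% of its MEF value, above the range of the chains. Its exons share 535 bases with Htra2 on the opposite strand, which stood at 109 TPM in MEF and 82.2 in BMDM.

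The sums of the intracellular enzymes with their partners and of the extracellular genes can be set against those of the chains. Serpinh1, at 1877 TPM in MEF and 3.91 TPM in BMDM, is in neither sum. Per TPM of collagen chain, MEF held 0.163 TPM of intracellular enzymes and BMDM 22.3 TPM, where the chains summed to only 32.8 TPM. For the extracellular genes the same ratio was 0.343 in MEF and 0.254 in BMDM. These ratios compare sums of transcript levels and say nothing of enzyme activity, which was not measured.

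Most other genes of collagen folding and export were expressed in both cells, as are most genes expressed in MEF. Of 13 listed genes in the table, all reached 5 TPM in MEF and 10 in BMDM. Over all genes at 5 TPM or more in MEF, 82.1% reached that level in BMDM. Of the 13, 4 were higher in MEF, none in BMDM and 9 in neither, and their median log2 ratio was 1.48. Among all genes at 5 TPM or more in either library, 14.3% were higher in MEF and 8.77% in BMDM, with a median of 0.26. Fkbp10, which encodes a procollagen prolyl isomerase of the reticulum, stood at 335 TPM against 0.994 and the related Fkbp14 at 44.6 against 0.360. Sec23a, a coat protein of transport vesicles, stood at 94.8 TPM against 16.1, and the transcription factor gene Creb3l1 at 43.5 against 8.06. Of 10 genes that organize fibrils 9 were higher in MEF. Their median log2 ratio was 6.65 over all 10 and 6.95 over the 9 at 5 TPM or more. The 4 with the highest levels were Thbs1 at 4977 TPM against 39.2, Sparc at 3888 against 6.15, Bgn at 2988 against 4.38 and Fn1 at 2015 against 10.5. Fn1, Sparc, Dcn, Lum and Postn of the 10 are also on the fibroblast marker list. They were thus listed for being high in fibroblasts, and nothing further is read from their calls.

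Receptors for collagen were called toward either cell, and the proteases called were mostly higher in MEF. Of 13 receptor genes, 5 were higher in MEF, 2 in BMDM and 6 in neither. The endocytic receptor gene Mrc2 stood at 115 TPM in MEF against 0.266, the collagen receptor kinase genes Ddr2 and Ddr1 at 101 against 0.0338 and 88.0 against 0.0755, and the integrin gene Itga11 at 45.0 against 0.117. In BMDM the inhibitory receptor gene Lair1 stood at 184 TPM against 0.0815 and the mannose receptor gene Mrc1 at 89.4 against 0.452. Of 10 protease genes 4 were higher in MEF, 1 in BMDM and 5 in neither. They summed to 1300 TPM in MEF and 119 TPM in BMDM. Over all genes of the table, 4.67% were higher in MEF and 2.86% in BMDM. For those at 5 TPM or more in either library, these shares were 14.3% and 8.77%. Mmp14, Mmp2, Ctsk and Fap stood at 706, 375, 153 and 6.55 TPM in MEF against 5.67, 3.30, 2.26 and 0.118. Fap is also on the list of fibroblast markers. Mmp8, the neutrophil collagenase gene, stood at 7.83 TPM in BMDM against 0.279. The calls of Fap and Mmp8 are lost with a pseudocount of 5 or a minimum of 10 TPM.

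Some proteins carry a collagen-like stretch without being collagens, and C1q is known to be hydroxylated and glycosylated there. Of 32 such genes, 10 were higher in MEF, 6 in BMDM and 16 in neither, and 18 of the 32 reached 5 TPM in either library. Over all genes of the table, 4.67% were higher in MEF and 2.86% in BMDM. At 5 TPM or more in either library, these shares were 14.3% and 8.77%. The complement chains C1qb, C1qc and C1qa, which contain a collagen-like stalk, stood at 3514, 2689 and 2049 TPM in BMDM against 2.21, 2.23 and 1.01, and the scavenger receptor gene Msr1 at 591 TPM against 0.568. Among those called higher in MEF the highest levels were Colec12 at 158 TPM against 15.5, Cthrc1 at 103 against 1.01 (the sum of 2 identical rows, of 51.6 and 0.504 each), C1qtnf3 at 92.3 against 0.0856 and C1qtnf5 at 66.9 against 0. Emilin1 stood at 109.8 TPM in MEF and 53.1 in BMDM without a call. Summed over the 32 genes, the level was 723 TPM in MEF and 9104 TPM in BMDM, the reverse of the order for the collagen chains. The 3 C1q chains alone held 8252 TPM of the BMDM sum. By count more of the 32 genes were higher in MEF, as was the case over all genes of the table.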

How the data were processed

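RNA of 1 MEF and 1 BMDM library was sequenced in paired reads of 76 bp from a stranded mRNA kit, per the labels' protocols. The authors' deposited values are TPM, judged by their totals since the table names no unit, and were made with kallisto 0.43.1 and build GRCm38, per the submitters' processing notes. Transcript set, gene summing and filters were not given in the sources used here. Rows of 1 symbol were added, giving 34295 genes from 34456 rows. Log2 ratios used a pseudocount of 1, which understates the change of low genes. No test was run, for lack of replicates. Python 3.11.15 and pandas 2.3.3 were used, and the calling step was tested on simulated data. Coordinates come from GENCODE M21 (GRCm38), which held all 68 symbols. The list genes Mia2, Gpr56 (an older name of Adgrg1, which was used) and Snorc were not matched. Members at 5 TPM or more were named, and in other lists up to 4 genes per direction past the rule. P4hb, Ppib, Comp, Emilin1, overlapping genes, and members and markers under 5 TPM were named after their values were seen. Members and lists were chosen with earlier results of these data known. Alternatives were pseudocounts of 0.1 and 5, minimum levels of 1 or 10 TPM or none, a 2-fold rule, 3 rescalings, the highest row of a symbol, and protein-coding genes alone. Protein sequences were not used here.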

Additional observations from a re-analysis of the deposited data

How the results depend on the processing

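No call turned to the other library under any alternative run, among the 43 members at 5 TPM or more and 75 called genes of the other lists. The count of 22 chains higher in MEF and that of 15 processing genes stayed within 1.5 times under all of them. Of these members, Col2a1 and Col27a1 lost their calls with a pseudocount of 5 or a minimum of 10 TPM. A 2-fold rule added P4ha2 and Crtap toward MEF and Plod1 toward BMDM. The count of processing genes higher in BMDM, 0 as reported, became 1, Plod1, with the 2-fold rule, with median-of-ratios scaling and with libraries rescaled to what is left after removal of mitochondrial genes and each library's top 50. Over the 43 members, the median-of-ratios scaling moved the log2 ratio by -0.19 to -0.08 and the other by -0.14 to 0.34. Of the 75 called genes of the other lists, 12 lost their call with a pseudocount of 5, 7 with a minimum of 10 TPM and 1, Sox9, with median-of-ratios scaling; Creb3l1 was among the 12, and Fap, Mmp8, Erg and Sox9 among both the 12 and the 7. The median log2 ratio over members that reach the minimum, 7.15 for the chains and 4.49 for the processing genes, was 8.18 and 6.62 with a pseudocount of 0.1 and 5.43 and 2.78 with one of 5. It was 5.27 for the chains with a minimum of 1 TPM, and 2.13 for the chains and 3.73 for the processing genes with none. Over all genes, 1602 higher in MEF and 981 in BMDM became 896 and 652 with a pseudocount of 5, and 2637 and 1698 with the 2-fold rule. No paired analysis was possible because each cell type has 1 library. Depth is unknown, so no lower limit of detection can be given.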
